A study of Mus musculus with 6 samples.

Results

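The genes described here are 9 genes of the p53 network: Trp53, Mdm2, Cdkn1a, Ccng1, Perp, Trp53inp1, Bax, Bbc3 and Apaf1. They were found by gene symbol in the probe annotation of 2 value tables of Affymetrix mouse arrays, which list 12393 genes by a probe set that names 1 gene. Of the 9 genes, 7 had such a probe set, 13 probe sets in all, and all 7 were among the 8627 genes tested, those with a mean signal of at least 100. Trp53 and Bax were not analysed here. Each gene is described first by its probe set of highest mean signal, called its main probe set, and then by its others. The arrays measured whole brains of Swiss Albino mouse embryos at E11.5, 1 brain per array. The 3 control brains came from normal mothers that received no listed treatment. The 3 diabetic brains were malformed ones, from mothers whose diabetes was induced with streptozotocin (STZ), which destroys the beta cells of the pancreas. Maternal diabetes, streptozotocin and malformation cannot be told apart in this design, and no label says whether brains shared a litter, so p-values measure only the spread between these arrays.

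The transcription factor p53 is held at a low level by Mdm2, a ubiquitin ligase that is itself a p53 target, and it is stabilised when DNA is damaged or a cell is stressed. Stabilised p53 raises the transcripts of a set of target genes that stop the cell cycle or start cell death, so these transcripts are a common readout of its activity, while its own transcript need not move. In the neural tube, p53-dependent death of progenitor cells is known from mutants and from embryos of diabetic mothers, where it has been tied to low expression of the transcription factor Pax3.

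The promoters of the measured genes are shown because the results ask whether genes of 1 regulator moved together. RefSeq start sites on GRCm38.p6 gave promoter windows, 250 bases before to 50 bases after a start, for 5 of the 7 measured genes and 8 windows in all. Each was searched for the p53 half-site consensus, a motif that reads alike on both strands, and the matches are printed in capitals. Only exact matches are marked, so a stretch that differs from the consensus at a single base is not, and binding by p53 was not tested. A half-site occurred in 3 of these 8 windows and in 8.36% of 32851 windows of all genes, and 2 half-sites 0 to 13 bases apart occurred in 0.0731% of them. The upstream start of Cdkn1a (chr17:29090729-29091028, plus strand) had such a pair, beginning 73 and 51 bases before the start. Ccng1 (chr11:40755237-40755536, minus strand) had 1 half-site, 185 bases before its start, and Mdm2 (chr10:117710709-117711008, minus strand) had 1, 186 bases before its start.
Cdkn1a: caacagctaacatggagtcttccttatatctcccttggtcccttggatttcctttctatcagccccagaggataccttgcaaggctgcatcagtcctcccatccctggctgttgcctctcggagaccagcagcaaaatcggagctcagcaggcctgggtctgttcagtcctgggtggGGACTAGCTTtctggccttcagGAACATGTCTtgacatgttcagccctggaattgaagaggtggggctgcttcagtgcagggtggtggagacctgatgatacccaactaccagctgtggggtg
Ccng1: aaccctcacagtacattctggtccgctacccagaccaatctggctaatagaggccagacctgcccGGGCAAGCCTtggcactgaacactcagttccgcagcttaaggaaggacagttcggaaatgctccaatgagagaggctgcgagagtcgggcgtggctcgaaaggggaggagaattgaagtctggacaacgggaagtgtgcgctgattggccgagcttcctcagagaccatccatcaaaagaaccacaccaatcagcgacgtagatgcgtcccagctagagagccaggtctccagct
Mdm2: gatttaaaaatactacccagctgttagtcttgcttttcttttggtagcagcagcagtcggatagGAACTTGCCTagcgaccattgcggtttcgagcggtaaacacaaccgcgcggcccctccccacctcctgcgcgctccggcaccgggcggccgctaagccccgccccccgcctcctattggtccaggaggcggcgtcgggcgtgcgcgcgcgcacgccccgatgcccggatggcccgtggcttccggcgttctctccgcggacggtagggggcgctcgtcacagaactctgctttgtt
The second start of Cdkn1a, the 3 starts of Bbc3 and the start of Apaf1 had 0 half-sites in their windows, which says only that these letters do not occur there.

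Replicates 1 and 2 of each group are in the first table, from the chip MOE430A, and replicate 3 of each group is in the second, from Mouse430A_2, run with another scanner and fluidics protocol. Across the genes tested, correlations were 0.937 to 0.975 between arrays of 1 table and 0.880 to 0.931 between tables, so every difference was taken within a table. Of 15 markers of embryonic brain, 14 had a probe set and 13 a mean signal of at least 100, among them Sox2 with 2382 and Nes with 2148, while En1 had 55.9. Over all genes limma called 0 of 8627 (0% of the genes tested) at an adjusted p under 0.05, with 659 at an unadjusted p under 0.05.

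In these brains 0 of the 7 measured genes passed the adjustment, and their changes did not share a direction: 3 lay above 0 and 4 below, against 52.2% of all genes above and 47.8% below. Perp, Trp53inp1 and Mdm2 had lower signals on every diabetic array than on the control arrays of the same table. That is 3 of 7 genes without overlap on the lower side, against 10.6% of all genes, and 0 of 7 on the higher side, against 11.3%. At an unadjusted p under 0.05, which 7.64% of all genes met, limma had 2 of the 7 lower (3.91% of all genes), Perp and Trp53inp1, and 0 higher (3.73%). The best known arrest and death targets, Cdkn1a and Bbc3, had log2 changes of 0.15 and 0.20 with intervals that span 0, each above 0 within the first table and below 0 within the second.

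**Figure D1:**
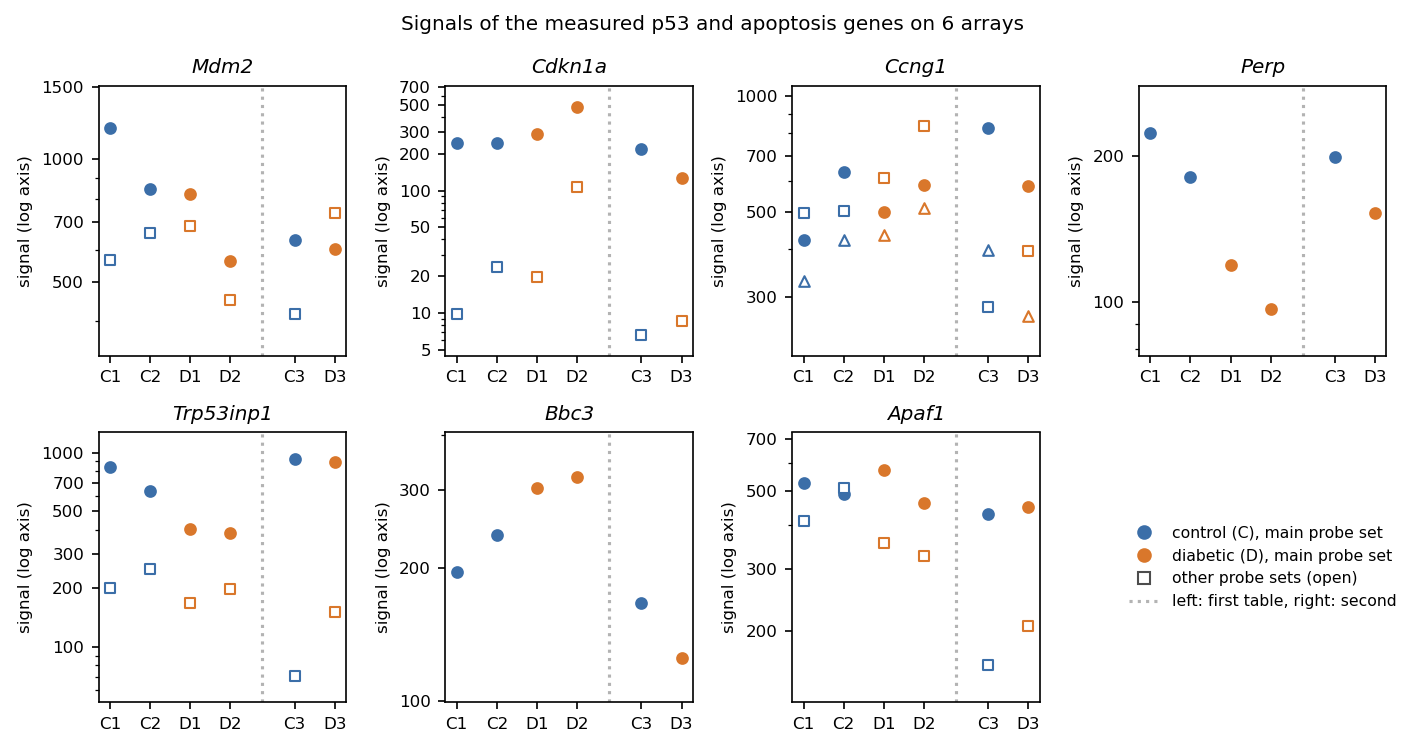
Signal (log axis) of the 7 measured genes on each of the 6 arrays, with control arrays C1 to C3 in blue and diabetic arrays D1 to D3 in orange. Filled points are the main probe set and open points the others, and a dotted line parts the first table (left) from the second (right). Perp lay between 96.9 and 152 on the diabetic arrays and between 181 and 222 on the control arrays, and most other genes overlapped between the groups or differed between probe sets.

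Mdm2 encodes the ligase that marks p53 for degradation, and its transcript is part of the feedback loop. Its main probe set had signals of 1194, 846 and 633 in control brains 1 to 3 and 821, 563 and 603 in diabetic brains 1 to 3. Within each table the diabetic arrays were the lower ones, although diabetic replicate 1 stood only just under control replicate 2. The log2 change was -0.38 ± 0.21 (SE, n = 3 per group), with a 95% interval from -0.85 to 0.089 and a limma adjusted p of 0.685. The other probe set, 1427718_a_at, had 567, 660 and 416 in control brains 1 to 3 and 684, 452 and 739 in diabetic brains 1 to 3. There the groups overlapped in the first table, diabetic replicate 3 was the highest of all 6 arrays, and the change was 0.17 ± 0.25. The mean over both probe sets had a log2 change of -0.10.

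Among the arrest targets, Cdkn1a encodes p21, an inhibitor of cyclin-dependent kinases that stops the cycle before S phase. Its main probe set had signals of 246, 245 and 221 in control brains 1 to 3 and 292, 483 and 128 in diabetic brains 1 to 3. The diabetic arrays thus held both the highest and the lowest value, the highest being diabetic replicate 2. The log2 change was 0.15 ± 0.27 (SE, n = 3 per group), with a 95% interval from -0.45 to 0.75 and a limma adjusted p of 0.892. It was 0.56 within the first table and -0.66 within the second, and -0.16 without diabetic replicate 2. The second Cdkn1a probe set, 1421679_a_at, had signals of 6.62 to 23.7 on the control arrays and 8.63, 19.5 and 108 on the diabetic ones, so only diabetic replicate 2 stood clearly above the other arrays. The mean over both Cdkn1a probe sets had a log2 change of 0.36.

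Ccng1 encodes cyclin G1, a p53 target that recruits a phosphatase to Mdm2, and it had 3 probe sets. The main one had signals of 421, 636 and 825 in control brains 1 to 3 and 499, 585 and 584 in diabetic brains 1 to 3. In the first table both diabetic arrays lay between the control arrays, and in the second the diabetic array was the lower. The log2 change was -0.12 ± 0.20 (SE, n = 3 per group), with a 95% interval from -0.57 to 0.33 and a limma adjusted p of 0.880. Probe set 1450016_at had 496, 503 and 282 in control brains 1 to 3 and 612, 837 and 394 in diabetic brains 1 to 3, higher on every diabetic array of either table. Its change was 0.48 ± 0.17, with a limma adjusted p of 0.764 over all probe sets. The third, 1450017_at, had a change of 0.032 ± 0.22, being 0.31 within the first table and -0.52 within the second, and the mean over the 3 probe sets had 0.13.

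Perp encodes a tetraspan membrane protein that is a p53 target in dying cells and, in stratified epithelia, a part of desmosomes. It had signals of 222, 181 and 199 in control brains 1 to 3 and 119, 96.9 and 152 in diabetic brains 1 to 3. All 3 diabetic arrays lay below all 3 control arrays, across tables as well as within them. The mean signal was 201 ± 21.0 (SD, n = 3) in control brains against 123 ± 27.9 (SD, n = 3) in diabetic ones. The log2 change was -0.60 ± 0.17 (SE, n = 3 per group), with a 95% interval from -0.98 to -0.21, an unadjusted p of 0.00625 and a limma adjusted p of 0.532. It was -0.74 within the first table and -0.32 within the second, and with any 1 array left out it lay between -0.74 and -0.49. In whole brains, fewer cells that express a gene and less RNA per cell cannot be told apart.

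Trp53inp1 encodes a stress-induced nuclear protein that promotes p53 activity and autophagy. Its main probe set, 1416926_at, had signals of 839, 638 and 930 in control brains 1 to 3 and 403, 385 and 893 in diabetic brains 1 to 3. Both diabetic arrays of the first table stood well apart from their controls, and the diabetic array of the second table was close to its control. The log2 change was -0.58 ± 0.20 (SE, n = 3 per group), with a 95% interval from -1.03 to -0.13, an unadjusted p of 0.0177 and a limma adjusted p of 0.612. It was -0.84 within the first table and -0.056 within the second. Probe set 1416927_at had signals of 200, 252 and 70.4 in control brains 1 to 3 and 167, 198 and 150 in diabetic brains 1 to 3. Both diabetic arrays of the first table were below their controls, diabetic replicate 2 by little, for a change of -0.26. The diabetic array of the second table was the higher by 0.83, which gave 0.10 ± 0.25 over both. The mean over both probe sets of Trp53inp1 had a log2 change of -0.24.

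Of the death genes, Bbc3 encodes PUMA, a BH3-only protein through which p53 triggers the mitochondrial route of apoptosis. Its signals were 196, 237 and 167 in control brains 1 to 3 and 303, 321 and 125 in diabetic brains 1 to 3. Both diabetic arrays of the first table were above their controls and that of the second table was below its control. The log2 change was 0.20 ± 0.20 (SE, n = 3 per group), with a 95% interval from -0.24 to 0.65 and a limma adjusted p of 0.804, being 0.47 within the first table and -0.34 within the second. Apaf1 encodes the scaffold of the apoptosome, which activates caspase 9 after cytochrome c is released. Its main probe set had signals of 527, 489 and 431 in control brains 1 to 3 and 573, 461 and 449 in diabetic brains 1 to 3. The groups overlapped in the first table, and the log2 change was 0.029 ± 0.16 with a 95% interval from -0.32 to 0.38 and a limma adjusted p of 0.972. Its second probe set, 1450223_at, had -0.16 ± 0.20, being -0.39 within the first table and 0.31 within the second.

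**Figure D2:**
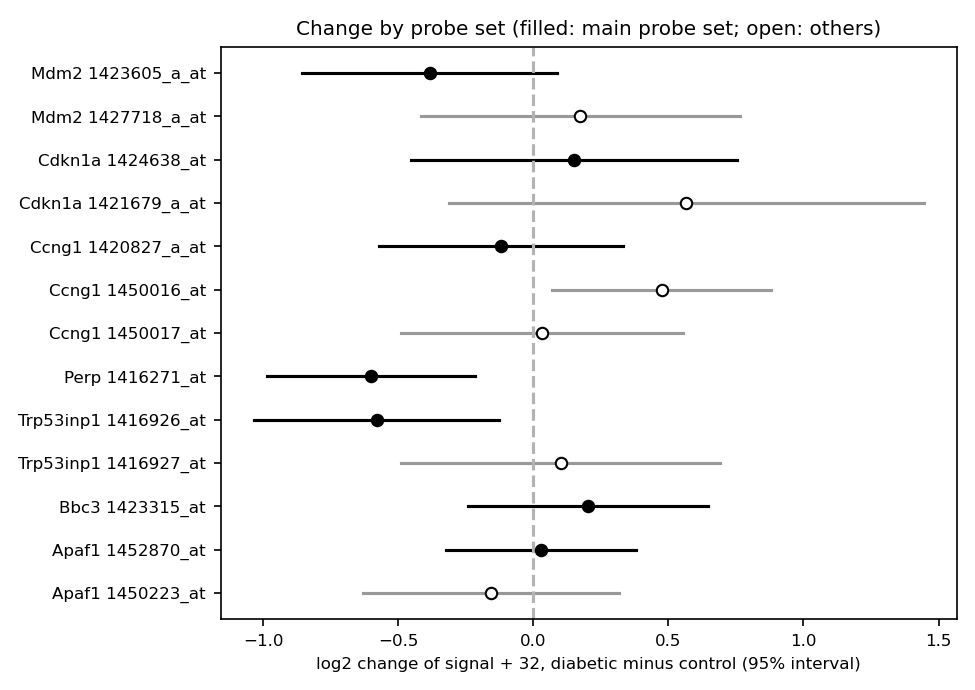
Log2 change of signal + 32 (diabetic minus control, x axis) for the 13 probe sets of the 7 measured genes, with 95% intervals from limma. Filled points are main probe sets and open points the others. The intervals of Perp, the main Trp53inp1 probe set and Ccng1 1450016_at leave out 0 before adjustment, and Mdm2, Ccng1, Trp53inp1 and Apaf1 each have points on both sides of 0.

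Probe sets of 1 gene therefore disagreed in sign for Mdm2, Ccng1, Trp53inp1 and Apaf1. The difference between the other and the main probe set was tested by itself with limma over 5123 such pairs of all tested genes, a test added after the values were seen. Of these pairs 0 (0%) passed the adjustment, 357 (6.97%) had an unadjusted p under 0.05, and 40.2% had opposite signs. The difference was 0.68 ± 0.24 (SE, n = 3 per group) for Trp53inp1, 0.56 ± 0.24 for Mdm2 and 0.60 ± 0.23 for Ccng1 1450016_at. Their unadjusted p in limma was 0.018, 0.044 and 0.029, and each had an adjusted p of 0.696. For Ccng1 1450017_at it was 0.15 ± 0.20 with an adjusted p of 0.888, and for Apaf1 it was -0.19 ± 0.23 with an adjusted p of 0.877. Each pair given here had opposite signs. The Cdkn1a pair, whose second probe set lay below the minimum signal, was not among those tested. The other probe set of Trp53inp1 gained on the main one in both tables. Relative to the main probe set, its log2 signal stood at -1.91 and -1.24 on the control and -1.13 and -0.86 on the diabetic arrays of the first table, and at -3.23 and -2.35 in the second.

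**Figure D3:**
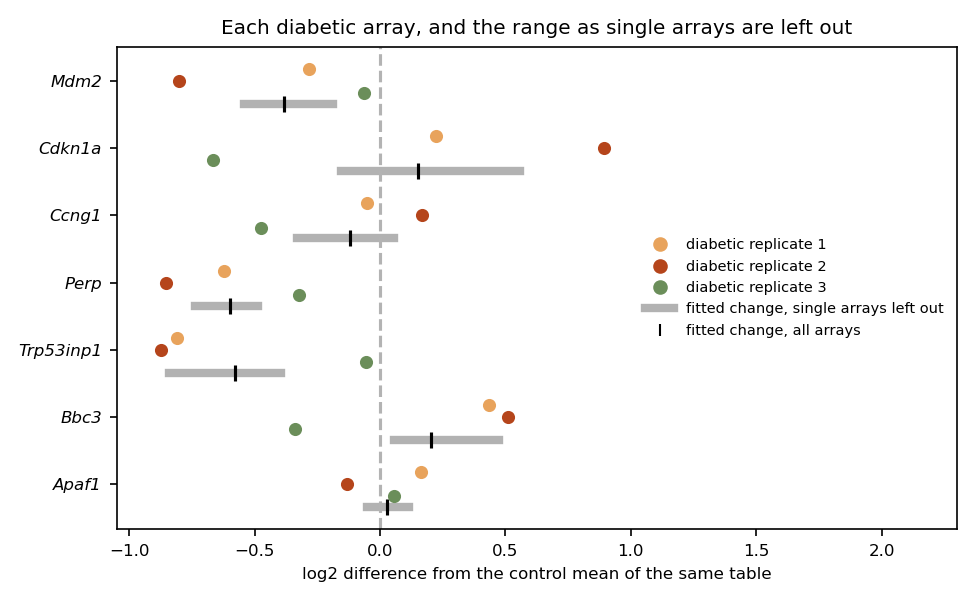
Log2 difference of each diabetic array from the control mean of its table (x axis, points) for the main probe sets of the 7 measured genes. Grey bars give the range of the fitted change as single arrays were left out, and black ticks the fitted change over all 6 arrays. For Perp, Trp53inp1 and Mdm2 all points lie below 0, while for Cdkn1a and Bbc3 diabetic replicates 1 and 2 lie above 0 and diabetic replicate 3 below.

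The diabetic arrays did not give 1 profile over these genes. Diabetic replicate 2 had the largest distance from its controls for Mdm2 (-0.80), Cdkn1a (0.89), Perp (-0.85), Trp53inp1 (-0.87) and Bbc3 (0.51). On diabetic replicate 1 the same genes had -0.28, 0.22, -0.62, -0.81 and 0.43, the same signs as on replicate 2. On diabetic replicate 3 they had -0.066, -0.66, -0.32, -0.056 and -0.34, so Cdkn1a and Bbc3 turned sign there. That replicate has its own table and a single control array, and chip, scanner and array cannot be told apart for it. Ccng1 and Apaf1 went otherwise, each with opposite signs on diabetic replicates 1 and 2. On diabetic replicates 1 to 3 Ccng1 had -0.050, 0.17 and -0.48, and Apaf1 had 0.16, -0.13 and 0.055. With any 1 array left out, Mdm2 ran from -0.54 to -0.19, Cdkn1a from -0.16 to 0.56, Ccng1 from -0.33 to 0.058, Trp53inp1 from -0.84 to -0.40, Bbc3 from 0.056 to 0.47 and Apaf1 from -0.052 to 0.12.

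Genes that act on p53 gave no called change either. Of 24 listed, 19 had a probe set and 17 were tested, with 11 above 0, 6 below, 0 called and a median log2 change of 0.090, beside 0.012 over all genes tested. At an unadjusted p under 0.05 limma had 1 of the 17 lower (3.91% of all genes), Mdm4, and 0 higher (3.73%). Mdm4, the inhibitory partner of Mdm2, had signals of 479, 353 and 539 in control brains 1 to 3 and 302, 311 and 397 in diabetic brains 1 to 3, lower on each diabetic array than on the control arrays of its table. Its log2 change was -0.40 ± 0.17 (SE, n = 3 per group) with a limma adjusted p of 0.647, and -0.055 as a mean over all its probe sets. Daxx, a chromatin protein that binds Mdm2, had 0.30 ± 0.19, the deacetylase Sirt1 -0.24 ± 0.17 and the checkpoint kinase Chek1 -0.17 ± 0.15. Daxx had 0.097 without control replicate 1, and Sirt1 had -0.13 without diabetic replicate 2. Pax3 had signals of 338, 308 and 445 in control brains 1 to 3 and 464, 384 and 366 in diabetic brains 1 to 3. It was higher on the diabetic arrays of the first table and lower on that of the second, with a change of 0.15 ± 0.18, a limma adjusted p of 0.836 and a change of 0.020 without diabetic replicate 1. Of the p53 relatives, Trp63 had -0.11 ± 0.17, -0.037 without diabetic replicate 1 and 0.11 as a mean over its probe sets, and Trp73, below the minimum signal, had 25.7 to 105 on the control and 31.0 to 85.5 on the diabetic arrays.

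Other p53 targets of arrest and repair were divided in direction as well. Of 22 listed, 17 were tested, with 9 above 0, 8 below, 0 called, 0 at an unadjusted p under 0.05 in limma and a median of 0.068. Rprm, reprimo, a mediator of arrest before mitosis, had -0.42 ± 0.21 (SE, n = 3 per group), and the antiproliferative gene Btg2 had -0.36 ± 0.19. Ddit4, an inhibitor of mTOR signalling that hypoxia also induces, had the largest value of these genes, 0.91 ± 0.54. Its signals were 1556, 1039 and 1393 in control brains 1 to 3 and 992, 6717 and 2278 in diabetic brains 1 to 3, so that diabetic replicate 2 carried it, and without that array the change was 0.099. Gtse1, a regulator of p53 in G2, had 0.26 ± 0.16, and Gadd45a, a stress gene of arrest and repair, had -0.25 ± 0.16. Without diabetic replicate 2 Rprm had -0.16, without control replicate 2 Btg2 had -0.19, and without diabetic replicate 1 Gadd45a had -0.14. Limma adjusted p was 0.661 or higher for all 17.

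Of 11 listed p53 targets of cell death, 6 were tested, with 4 above 0, 2 below, 0 called, 0 at an unadjusted p under 0.05 in limma and a median of 0.13. Bid, a BH3 protein that links death receptors to mitochondria, had signals of 183, 82.8 and 153 in control brains 1 to 3 and 187, 255 and 165 in diabetic brains 1 to 3. Its diabetic arrays were the higher ones in either table, by little for diabetic replicates 1 and 3, and its change was 0.48 ± 0.25 (SE, n = 3 per group) with a limma adjusted p of 0.678. Without control replicate 2, its lowest array, it was 0.17. Siva1, a pro-apoptotic protein, had 0.26 ± 0.19, Pidd1, a scaffold for caspase 2 activation, 0.16 ± 0.19, and Pmaip1, the BH3-only protein NOXA, -0.22 ± 0.24. Siva1 had 0.51 within the first table and -0.25 within the second, and 0.14 without diabetic replicate 2. Pidd1 had 0.33 and -0.19 within the tables, the signs that Cdkn1a and Bbc3 also had. Pmaip1 had the reverse signs, -0.50 and 0.33, as did Ei24 with -0.24 and 0.23. Bid, with 0.67 and 0.095, and Aen, with 0.10 and 0.086, lay above 0 within both tables. The death receptor gene Fas was far below the minimum, with 2.68 to 4.97 on the control arrays and 12.2, 42.6 and 5.63 in diabetic brains 1 to 3.

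The Bcl2 family, whose balance of protective and killing members decides release of cytochrome c, had 13 of 19 genes tested, with 6 above 0, 7 below, 0 called and a median of -0.037. At an unadjusted p under 0.05 limma had 2 of the 13 higher (3.73% of all genes), Bmf and Bcl2l13, and 0 lower (3.91%). Bmf, a BH3-only protein, had signals of 110, 144 and 53.7 in control brains 1 to 3 and 142, 196 and 114 in diabetic brains 1 to 3, so diabetic replicate 1 lay just under control replicate 2. Its change was 0.48 ± 0.19 (SE, n = 3 per group) with a limma adjusted p of 0.647. It was 0.33 within the first table and 0.77 within the second, where the control signal of 53.7 was low, not far above the 32 added before the log. Bcl2l13 had 0.34 ± 0.15, Hrk, a BH3-only protein of neurons, 0.40 ± 0.18, and Bak1, a pore-forming killer, 0.41 ± 0.20. Hrk and Bcl2l13 were higher on every diabetic array than on the controls of the same table, Hrk by as little as 205 against 203. Hrk had 0.27 within the first table and 0.67 within the second, where its signals, 15.8 and 43.9, were low, around the 32 added before the log. Bak1 had 0.65 within the first table and -0.077 within the second, and 0.24 without diabetic replicate 1. The protective genes Bcl2 and Bcl2l1 had -0.10 ± 0.15 and -0.037 ± 0.18, and Bcl2l1 had 0.16 as a mean over its probe sets.

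Caspases, their partners and inhibitors had 16 of 18 genes tested, with 4 above 0, 12 below, 0 called and a median of -0.11. At an unadjusted p under 0.05 limma had 1 of the 16 lower (3.91% of all genes), Birc3, and 0 higher (3.73%). Birc3, an inhibitor of apoptosis protein, had signals of 143, 159 and 103 in control brains 1 to 3 and 77.3, 73.3 and 99.1 in diabetic brains 1 to 3. All 3 diabetic arrays were below all 3 control arrays, and the change was -0.53 ± 0.19 (SE, n = 3 per group) with a limma adjusted p of 0.612, being -0.77 within the first table and -0.047 within the second. The further inhibitors, Xiap with -0.32 ± 0.15 and the giant ubiquitin ligase Birc6 with -0.45 ± 0.22, had -0.17 and -0.21 as means over their probe sets. The initiator caspases Casp8 and Casp9 had -0.29 ± 0.17 and 0.093 ± 0.17. Without control replicate 3 Birc6 had -0.23, and without control replicate 1 Casp8 had -0.14. Death receptor genes had 6 of 12 tested, with 3 above 0, 3 below, 0 called, 0 at an unadjusted p under 0.05 and a median of 0.074. Among them were Cflar, the decoy of caspase 8, with 0.39 ± 0.21 (0.091 as a mean over its probe sets), Ngfr, the p75 neurotrophin receptor, with -0.28 ± 0.22, Tnfrsf1a with 0.18 ± 0.16 and Tnfrsf21 with 0.18 ± 0.23. Without diabetic replicate 2 Cflar had 0.20 and Ngfr -0.081, and without control replicate 1 Tnfrsf1a had 0.12.

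**Figure D4:**
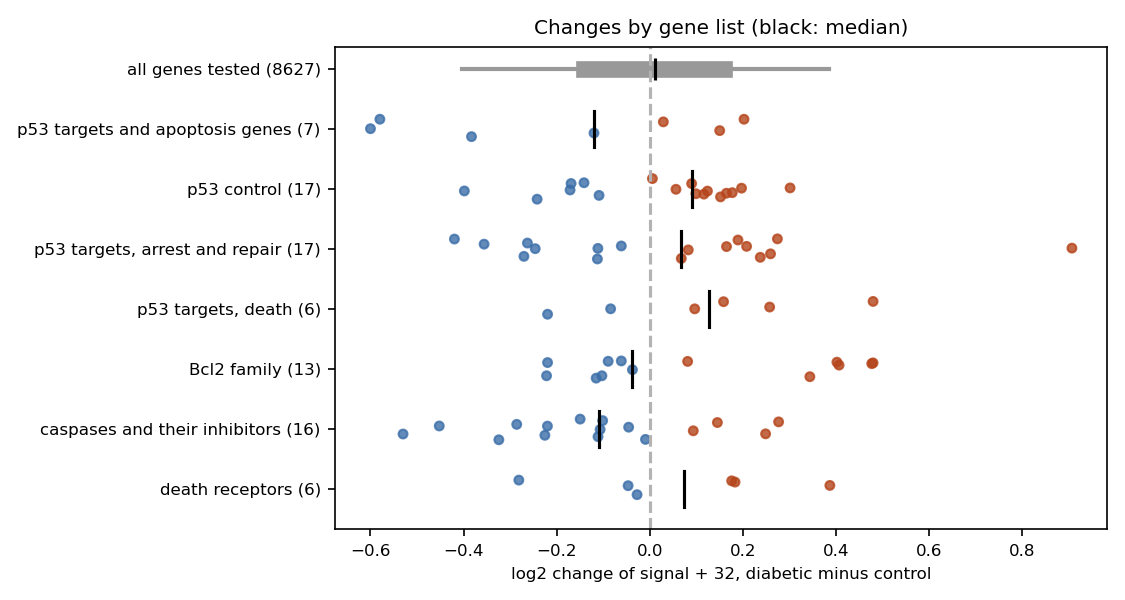
Log2 change of signal + 32 (diabetic minus control, x axis) of the tested genes of each list, blue below and red above 0, with the number of genes in brackets and a black line at the median. The top bar gives all genes tested, the thick part from the 25th to the 75th percentile (-0.14 to 0.16) and the thin part from the 5th to the 95th (-0.40 to 0.39). List medians run from -0.12 to 0.13, and Ddit4 is the point at 0.91.

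Because Perp is also a gene of surface epithelium, markers of that tissue were set beside it. Of 21 markers 20 had a probe set and 14 were tested, with 8 above 0, 6 below, 0 called and a median log2 change of 0.029. Cldn3 was the 1 gene of the 14 that was higher at an unadjusted p under 0.05 in limma (3.73% of all genes), and Krt5 the 1 that was lower (3.91%). Within the first table the summed signal of the 20 markers was 5026 and 4524 on the control arrays against 5276 and 5718 on the diabetic ones. Within the second it was 3465 on the control array against 3112 on the diabetic one. The sum was thus higher on both diabetic arrays of the first table, on which Perp was lower, and lower on that of the second. Krt5, a keratin of basal epithelial cells, had signals of 188, 163 and 82.2 in control brains 1 to 3 and 74.9, 51.8 and 86.9 in diabetic brains 1 to 3. Its change was -0.73 ± 0.24 (SE, n = 3 per group) with a limma adjusted p of 0.612, low on diabetic replicates 1 and 2 as Perp was, but 0.058 in the second table. Dsp, desmoplakin, the desmosomal linker to keratin, had -0.28 ± 0.18 and was lower on every diabetic array than on the controls of its table, with -0.11 without control replicate 1. Jup, also a desmosomal gene, had 0.028 ± 0.20, with 0.30, -0.39 and 0.18 on diabetic replicates 1 to 3. Cldn3 and Krt18, of tight junctions and simple epithelia, lay above 0 with 0.64 ± 0.19 and 0.30 ± 0.16 (0.18 for Krt18 without diabetic replicate 2), and Cdh1, E-cadherin, had -0.12 ± 0.20. Krt14, Krt15, Krt17, Krt19, Pkp1 and Sfn were below the minimum signal. The part of epithelial cells in the Perp result was not tested.

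**Figure D5:**
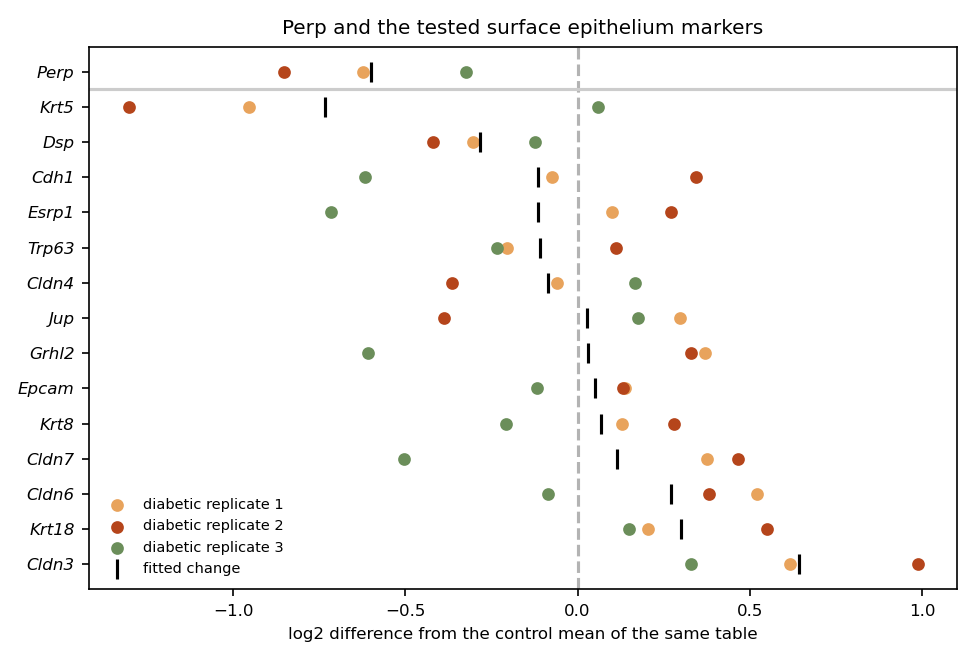
Log2 difference of each diabetic array from the control mean of its table (x axis, points) and the fitted change (black ticks) for Perp, above the grey line, and the 14 tested markers of surface epithelium. Perp, Krt5, Dsp and Cldn4 have both first-table points below 0, while Cldn3 and Krt18 have all 3 points above 0.

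Markers of other cell types are given beside these values. Those of mesenchyme and meninges had 13 of 14 tested genes below 0 and a median of -0.35, with 0 called. At an unadjusted p under 0.05 limma had 3 of the 14 lower (3.91% of all genes), Foxd1, Postn and Lox. Foxd1, a transcription factor gene listed here for mesenchyme, had -0.63 ± 0.21 (SE, n = 3 per group). Postn, periostin, had -0.56 ± 0.19, and Lox, lysyl oxidase, -0.49 ± 0.21. Lox had -0.81 within the first table but 0.15 within the second. Lum and Dcn also lay above 0 within the second, with 0.65 and 0.41, where the list median was -0.23. Without overlap were 5 of the 14 on the lower side (10.6%) and 1 on the higher (11.3%). Their summed signal was 18006 and 18345 on the control against 15236 and 14750 on the diabetic arrays of the first table, and 21812 against 18318 in the second. It was thus lower on every diabetic array than on the controls of its table, as the main probe sets of Perp, Trp53inp1 and Mdm2 were. The other probe sets of Trp53inp1 and Mdm2 were higher on the diabetic array of the second table, by 0.83 and 0.78.

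For the next lists counts and medians cover the tested genes, while sums cover every marker with a probe set, also those below the minimum signal. These were 12 macrophage, 12 endothelial, 10 erythroid and 14 brain markers. Macrophage markers had 4 of 7 below 0 and a median of -0.16, with sums of 2243 and 2082 on the control against 1807 and 1286 on the diabetic arrays of the first table, and 1307 against 1414 in the second. Endothelial markers had 7 of 11 above 0 and a median of 0.069, with 4098 and 3644 against 3806 and 3586, and 2374 against 3182. Erythroid markers had 6 of 9 above 0 and a median of 0.095, with 43473 and 52367 against 49834 and 57616, and 50560 against 53067. Markers of embryonic brain had 5 of 13 above 0 and a median of -0.070, with 16680 and 17188 against 14208 and 12252, and 18532 against 21858. Brain and macrophage sums were thus lower on both diabetic arrays of the first table and higher on that of the second. At an unadjusted p under 0.05 limma had 1 of 13 brain markers higher, Sox1, and 2 lower, Fabp7 and Neurod1. It had 1 of 7 macrophage markers lower, Mrc1, 1 of 11 endothelial markers higher, Plvap, and 0 of 9 erythroid markers. Over all genes 3.73% were higher and 3.91% lower at that threshold. Sox1 had 0.63 ± 0.16 (SE, n = 3 per group), Fabp7 -0.62 ± 0.22 and Neurod1 -0.55 ± 0.21. Mrc1 had -0.65 ± 0.19 and Plvap 0.57 ± 0.15. The part of these cell types in the values of the p53 genes was not tested.

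The genes most like Perp over the 6 arrays were found by the root mean square difference of log2 signals centred within each table. Ptx3, the long pentraxin of innate immunity, was closest with a difference of 0.031, followed by Cenpc1, a centromere protein, with 0.041, Pigk, a subunit of the enzyme that attaches lipid anchors, with 0.049, Zmynd11, a chromatin reader, with 0.050, and Tmem109, a membrane protein of the endoplasmic reticulum, with 0.051. Their log2 changes were -0.57 ± 0.17 (SE, n = 3 per group), -0.66 ± 0.18, -0.58 ± 0.16, -0.57 ± 0.17 and -0.63 ± 0.17, and 0 of these 5 passed the adjustment in limma. As means over all probe sets Pigk, Zmynd11 and Tmem109 had -0.16, -0.34 and -0.080. None of the other p53 network genes in the lists was among the 5, a place open to few of 8627 genes, so nothing is concluded from it. The 5 were picked on these same 6 arrays, so their changes follow from the choice.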

How the data were processed

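Total RNA of 6 embryonic brains was labelled with biotin and hybridised to 6 arrays, per the labels. The deposited intensity values, 1 signal per probe set on a linear scale, were made by the authors with GCOS, per the submitters' processing notes. No version or setting of it is given in these sources. The arrays were scaled to a trimmed mean of 500 (2% trimmed at each end). They were rescaled to it exactly, by 0.0363% or less, and analysed as log2(signal + 32), a scale that understates the change of low signals. Of 22690 probe sets, 64 were array controls and 20380 named 1 gene. The main probe set of a gene had the highest mean log2 signal, for these genes also the highest linear mean, and a mean signal of 100 was the minimum for testing. The groups were compared by two-sided tests in limma 3.58.1 (R 4.3.3, functions lmFit and eBayes), the table being a block, with 3 residual and 6.48 prior degrees of freedom. P-values were adjusted by Benjamini-Hochberg over every gene tested, at a threshold of 0.05. Values for other probe sets came from the same fit over all probe sets. No depth exists for arrays, and their number limits the precision. The median SE of a log2 change was 0.17. On simulated data with 200 of 8627 genes changed by 2 on the log2 scale, 91% were recovered, with 3 false calls. Smaller changes, such as those of the p53 genes here, were not simulated, so their recovery is not known.

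The genes and the lists were chosen with earlier results of these data known. Named genes were every listed p53 gene, tested genes of smallest p from each list (up to 4), some genes fixed by name and the 5 most like the gene of smallest p, and not all are printed. Ei24 and Aen were named to complete the tested death targets. Marker lists other than surface epithelium are given as counts, medians and summed signals. From them Foxd1, Postn, Lox, Lum, Dcn, Sox1, Fabp7, Neurod1, Mrc1 and Plvap were named after their values were seen. Alternatives were the pseudocount, the minimum signal, normalization, choice of probe set, a replicate block, array weights, the first table alone and each array left out. Promoters came from RefSeq on GRCm38.p6.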

Additional observations from a re-analysis of the deposited data

How the results depend on the processing

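In limma 0 genes and 0 of the p53 genes were called under each of the 11 alternatives and with each array left out, with 414 to 839 genes at an unadjusted p under 0.05 when 1 array was left out and 542 to 883 under the alternatives, against 659. With the replicate block, in which the number also holds the table, 627 genes had an unadjusted p under 0.05 and no call changed. Same-numbered arrays of the first table had deviations that correlated at -0.0091 over 8627 genes. This single value cannot tell whether same-numbered brains shared a litter, and no label pairs them. The lowest adjusted p of Perp over all alternatives was 0.333. The minimum signal of 200 left Perp with no value. Signs turned, with the cause not tested, as a mean over all probe sets for Ccng1 (0.13), Apaf1 (-0.064), Trp63 (0.11) and Bcl2l1 (0.16), and in the first table alone for Ccng1 (0.058), Tnfrsf21 (-0.21) and Cdh1 (0.13).

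List medians that moved by more than their spread over the diabetic arrays, the cause not tested, were those of arrest and repair targets (0.011 with the minimum of 200 and 0.18 in the first table alone), death targets (0.21 with array weights and 0.22 in the first table alone), the Bcl2 family (0.086 with array weights) and death receptors (-0.043 in the first table alone). For the caspase list, whose spread was small, they were -0.12 with pseudocount 1, -0.10 with pseudocount 100, -0.10 with quantile normalization, -0.12 with median centring, -0.10 as a mean over probe sets, -0.12 with array weights and -0.091 in the first table alone. With 1 array left out, medians ranged from -0.041 to 0.13 for p53 control, -0.0027 to 0.18 for arrest and repair, 0.016 to 0.22 for death targets, -0.071 to 0.068 for the Bcl2 family, -0.15 to -0.091 for caspases and -0.043 to 0.14 for death receptors. With 1 array left out, signs turned within these ranges: Cdkn1a -0.16 to 0.56, Ccng1 -0.33 to 0.058, Apaf1 -0.052 to 0.12, Pmaip1 -0.50 to 0.068, Pidd1 -0.0067 to 0.33, Bcl2l1 -0.22 to 0.10, Casp9 -0.047 to 0.20, Tnfrsf21 -0.21 to 0.32 and Cdh1 -0.31 to 0.13. Leaving out either array of the second table leaves its partner with no information on the contrast.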
